A study of Mus musculus with 10 samples.

Results

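DIDO3ΔE16 embryonic stem cells (ESC) were compared directly with DIDO3ΔCT ESC reconstituted with HA-tagged DIDO3, with no WT library in the fit. The members were the 3 libraries of each group, 6 of the 10 samples of the series, taken by their genotype labels. Both groups were C57BL/6 mouse ESC grown with fetal calf serum and LIF, on mitomycin C-treated fibroblasts or on gelatin; the labels do not say which surface each culture had. DIDO3ΔE16 cells carry a Cre deletion of the floxed exon 16 of Dido1, made with a Sox2-Cre transgene. DIDO3ΔCT+HADIDO3 cells carry the constitutive C-terminal deletion, which affects the same exon, and a stably transfected HA-tagged DIDO3. The groups thus differ in the deletion allele, in the added DIDO3 and in the cell line, and these cannot be told apart here. No label says that the replicates came from separate cultures, so p-values measure the spread between these libraries, which may be technical.

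Dido1 encodes DIDO1, DIDO2 and DIDO3, which share their N-terminal part and end at different 3′ exons. DIDO3, the longest, carries the TFIIS-like and SPOC domains found in proteins that bind RNA polymerase II, and its C-terminal part is encoded by exon 16. ESC renew in LIF and depend on OCT4 (Pou5f1), SOX2 and NANOG.

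RNA was measured at 3′UTRs. The authors' features are annotated 3′UTRs with 2 kb added downstream, and values are TPM, a level scaled by feature length to the same total in every library. Features with the same coordinates were summed into a site, and all features of a gene into a gene value. Bases in features ranged from 1.46 to 2.15 Gb in DIDO3ΔE16 and from 2.15 to 2.61 Gb in DIDO3ΔCT+HADIDO3. Across genes, log2 TPM of libraries correlated with r of 0.959 to 0.963 within a group and 0.902 to 0.910 between groups, as a description with no test. DIDO3ΔE16 replicate 2 was read on another flow cell than the other 5 libraries.

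The ESC markers were abundant in both groups. Pou5f1 was at 258, 235 and 205 TPM in DIDO3ΔE16 and 216, 221 and 193 TPM in DIDO3ΔCT+HADIDO3, and the groups overlapped. Sox2 was at 391.8, 386 and 423 TPM against 446, 456 and 479 TPM, and Nanog at 1177, 1054 and 1016 TPM against 785, 775 and 769 TPM; neither reached the fold threshold for a call. Zfp42 (REX1), a marker of naive ESC, was lower in DIDO3ΔE16, at 81.9, 81.2 and 85.1 TPM against 268, 245 and 249 TPM.

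At the targeted gene, 4 Dido1 sites on the reverse strand of chromosome 2 (mm10) were read, none of which overlaps another site. The most distal (180655963 to 180659338), at the end of exon 16, had 0.546, 0.511 and 0.307 TPM in DIDO3ΔE16 and 12.1, 11.5 and 10.9 TPM in DIDO3ΔCT+HADIDO3. The site before it (180663936 to 180669364) had the reverse order, with 90.6, 96.1 and 81.7 TPM against 8.65, 7.30 and 8.44 TPM. The second site (180678954 to 180683548) was lower in DIDO3ΔE16, at 6.16, 7.05 and 6.65 TPM against 46.6, 43.9 and 43.8 TPM. All of these differences passed the test, and at none did the groups overlap.

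The most proximal and most abundant Dido1 site (180686711 to 180688819) overlapped between the groups, with 163, 153 and 152 TPM against 163, 141 and 138 TPM. Its log2 fold change, here always DIDO3ΔE16 minus DIDO3ΔCT+HADIDO3, was 0.10 ± 0.09 (SE; limma adjusted p = 0.389). For the sum over the gene this difference was 0.24 ± 0.08 (limma adjusted p = 0.0518). The groups therefore differed in RNA at the other Dido1 sites, while the summed level was not called. At the most distal site, the low value in DIDO3ΔE16 is built into the genotype, because Cre deleted that exon. Whether the added HA-tagged DIDO3 supplied the RNA read there in DIDO3ΔCT+HADIDO3 was not tested.

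**Figure D1:**
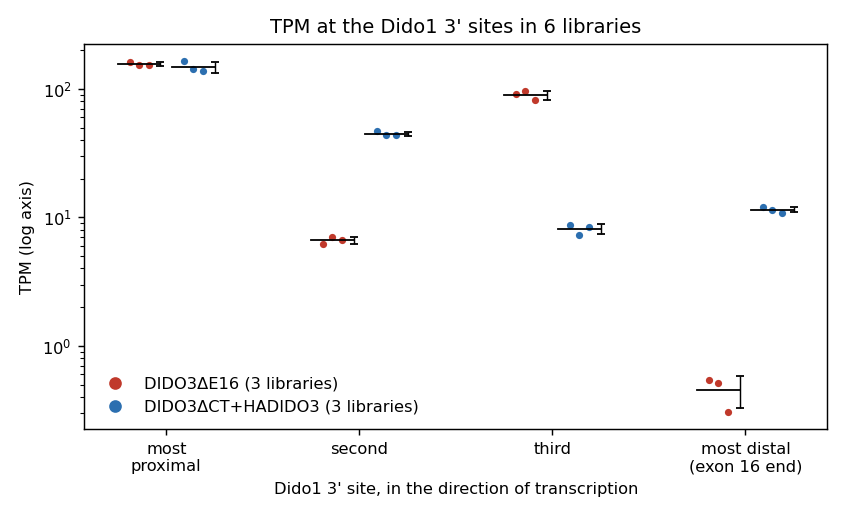
TPM (log axis) at the 4 Dido1 sites in the direction of transcription; points are libraries, lines group means and bars 1 SD (n = 3). The most proximal site overlaps between the groups, and the other sites are separated, the second and the most distal being lower in DIDO3ΔE16 and the third higher.

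Of 15160 genes with TPM above 0 in all 6 libraries, 2254 (14.9%) were higher in DIDO3ΔE16 and 2018 (13.3%) lower, where a call needs a log2 fold change of 0.7 or more in size together with a Benjamini-Hochberg adjusted p below 0.05 in limma. The groups did not overlap for 9894 genes (65.3%), so a lack of overlap alone was common. Of the called genes, 845 differed by at least 2 on the log2 scale. Median TPM of the genes called higher was 7.66 in DIDO3ΔE16 and 2.16 in DIDO3ΔCT+HADIDO3, of those called lower 8.29 and 20.5, and of those not called 33.3 and 33.7. Per site, 2946 of 21172 (13.9%) were higher and 2845 (13.4%) lower.

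A limit of the gene values comes from features that share bases. Among genes with such features and at least 10 TPM in some library, 1394 of 7142 (19.5%) differed more than 3-fold between libraries of 1 group, against 7 of 3448 (0.203%) among genes whose features share no base. Esrrb, a naive pluripotency factor, was at 1947, 51.4 and 1729 TPM in DIDO3ΔCT+HADIDO3 and 1258 to 1298 TPM in DIDO3ΔE16, so its value is uncertain. Of the 5659 tested genes with unshared features, 1022 (18.1%) were higher and 806 (14.2%) lower. The 5659 kept the adjustment over all genes. For values of tested genes below, shared features are stated beside the gene.

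Increases were ranked among called genes of 5 TPM or more with no overlap between groups that share no base with another gene, Gm and Rik names left out. The largest were mostly in Y-linked, X-linked multicopy and matrix genes. Outside this ranking, Slc16a8 (shared features) had a log2 fold change of 7.51. Olig2 was not tested because 1 library had 0 TPM. It was at 44.3, 48.2 and 57.8 TPM in DIDO3ΔE16 against 0, 0.143 and 0.059 TPM. Ddx3y, a Y-linked RNA helicase with shared features, was at 39.2, 38.9 and 42.6 TPM in DIDO3ΔE16 and 0.01, 0.019 and 0.043 TPM in DIDO3ΔCT+HADIDO3. Eif2s3y, Uty, Kdm5d, Zfy1 and Uba1y were listed at 0 in all 3 DIDO3ΔCT+HADIDO3 libraries and at 3.54 to 11.99 TPM in DIDO3ΔE16. TPM summed over the 115 named Y-linked genes was 88.2 to 94.1 in DIDO3ΔE16 and at most 2.40 in DIDO3ΔCT+HADIDO3. The median log2 fold change of X-linked genes was 0.01. The lines thus differed in Y-linked RNA besides their Dido1 alleles, and its part in the other results was not tested.

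Xlr genes form a cluster of near-identical copies on the X chromosome, so that their reads may be divided among copies. Xlr3b was at 187, 167 and 149 TPM in DIDO3ΔE16 and 0.269, 0.556 and 0.616 TPM in DIDO3ΔCT+HADIDO3, a log2 fold change of 8.21 ± 0.27 (SE; limma adjusted p = 2.9e-05). Xlr3a was at 213, 196 and 177 TPM against 0.624, 0.978 and 0.727 TPM, and Xlr3c at 225, 211 and 196 TPM against 1.83, 1.13 and 1.81 TPM. Every DIDO3ΔE16 library was far above every DIDO3ΔCT+HADIDO3 library for these genes. Xlr4a, Xlr4b and Xlr4c followed, with log2 fold changes of 6.27, 6.18 and 5.34, the last 2 from shared features. Rhox5, a homeobox gene of the reproductive cluster, was also higher, at 34.1, 29.1 and 39.0 TPM against 6.17, 5.99 and 6.62 TPM. The group was not uniform. Of 14 tested X-linked multicopy genes 8 (57.1%) were higher and 2 (14.3%) lower, beside 14.9% and 13.3% of all tested genes. Xlr (shared features) and Rhox13 were lower, by log2 fold changes of -1.47 and -2.40.

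Many collagen genes, and the collagen cross-linking enzyme Lox, were higher in DIDO3ΔE16. Col1a2 was at 82.5, 82.8 and 85.2 TPM against 0.669, 0.432 and 0.668 TPM, and Col5a2 at 17.3, 19 and 18.2 TPM against 0.105, 0.150 and 0.052 TPM. Lox, a lysyl oxidase with shared features, was at 85.3, 90.6 and 92.2 TPM against 0.342, 0.551 and 0.758 TPM. Grem1, a secreted BMP antagonist, was at 29.8, 27.4 and 31.8 TPM against 0.301, 0.162 and 0.134 TPM. Their log2 fold changes ran from 6.5 to 7.14. Of 36 tested genes with a Col symbol, 23 were higher and 2 lower, beside 14.9% and 13.3% of all tested genes. The 2 were Col6a4 and Col5a3, the latter with shared features. The median log2 fold change was 0.94, and outside the fibroblast list the count was 17 higher and 2 lower of 30.

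The list of fibroblast markers holds some of these collagens. Of the 20 listed, 14 were tested, 9 (64.3%) were higher and 2 (14.3%) lower, beside 14.9% and 13.3% of all tested genes. The median log2 fold change was 1.43 against 0.01 over all genes. Of the 9, 6 are collagens; without collagens, an alternative chosen after seeing the data, 3 of 8 tested markers were higher (Fbn1, with shared features, Loxl1 and S100a6) and 2 lower, with a median of 0.10. Without Fn1, which ESC also express (shared features), the list summed to 318 to 332 TPM in DIDO3ΔE16 and 149 to 156 TPM in DIDO3ΔCT+HADIDO3. Among the defining markers, Col1a1 was at 28.2, 28 and 29.9 TPM against 0.963, 0.957 and 1.51 TPM, Col3a1 at 3.89 to 4.26 TPM and listed at 0 in DIDO3ΔCT+HADIDO3, and Postn at 2.97 to 3.9 TPM against at most 0.057 TPM. Lum and Dcn, however, were at or near 0 in every library (at most 0.129 TPM), and Thy1 and Pdgfrb (shared features) were lower in DIDO3ΔE16. Cultures could be grown on fibroblasts, and the part of such cells in these results was not tested; in bulk RNA, fewer cells of a type and less RNA per cell cannot be told apart.

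Of 15 tested Hippo and YAP targets 4 (26.7%) were higher and 0 lower, beside 14.9% and 13.3% of all tested genes. The other 11 were not called. Ccn2 (CTGF), a matrix-associated YAP target, was at 187, 185 and 191 TPM against 25.1, 24.1 and 25.1 TPM, a log2 fold change of 2.9 ± 0.04 (SE; limma adjusted p = 5.51e-06). Ccn1, of the same family, was at 55.7, 58 and 57 TPM against 19.2, 18.4 and 18.5 TPM. For both genes the groups were widely separated. Yap1 itself was not called (shared features, log2 fold change 0.06).

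The Nodal, BMP and TGF-beta list split, with 7 of 23 tested members (30.4%) higher and 8 (34.8%) lower, beside 14.9% and 13.3% of all tested genes. Id3 and Id4, inhibitors of helix-loop-helix factors, were higher by 2.45 and 1.64 on the log2 scale, whereas their relatives Id1 and Id2 were lower, by log2 fold changes of -1.01 and -1.80. Id3 was at 208, 214 and 206 TPM against 39.1, 37.4 and 36.6 TPM, and Id1 at 33.4, 34.8 and 35.7 TPM against 72.5, 67.0 and 68.7 TPM. Nodal was higher (1.01) and Lefty2, an inhibitor of Nodal signals, lower (-1.57). Fst and Tgfb2, both with shared features, were higher by 3.52 and 2.68.

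The largest decreases were in single genes of varied kinds. Tcl1, a cofactor of AKT expressed in naive ESC, was at 3.79, 3.98 and 3.40 TPM in DIDO3ΔE16 and 217, 298 and 215 TPM in DIDO3ΔCT+HADIDO3 (shared features; log2 fold change -5.99 ± 0.15, SE). Ly6e, a GPI-anchored surface protein, was at 4.85, 4.0 and 3.81 TPM against 216, 225 and 218 TPM (shared features). BB014433, on chromosome 8, was at 0.157, 0.305 and 0.107 TPM against 30.3, 26.6 and 27.4 TPM. The groups were far apart for each. Mall, Wnt10b, Neurog3, Il12rb1, Creg2, Slc11a1, Tex13b and Ttll11 followed, with log2 fold changes from -4.30 to -3.50; Wnt10b, Il12rb1 and Ttll11 have shared features. Slc11a1, an iron and manganese transporter of phagosomes, was at 1.76, 1.99 and 1.68 TPM against 23.4, 25.8 and 23.6 TPM. Ei24 (5.96) and Gmppa (-3.47) completed the list, but have features of identical coordinates. Gmppa was at 0.964, 0.774 and 11.5 TPM against 23.7 to 24.6 TPM, and its call was lost when any library other than DIDO3ΔE16 replicate 3 was left out (-3.50 to -2.80).

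**Figure D2:**
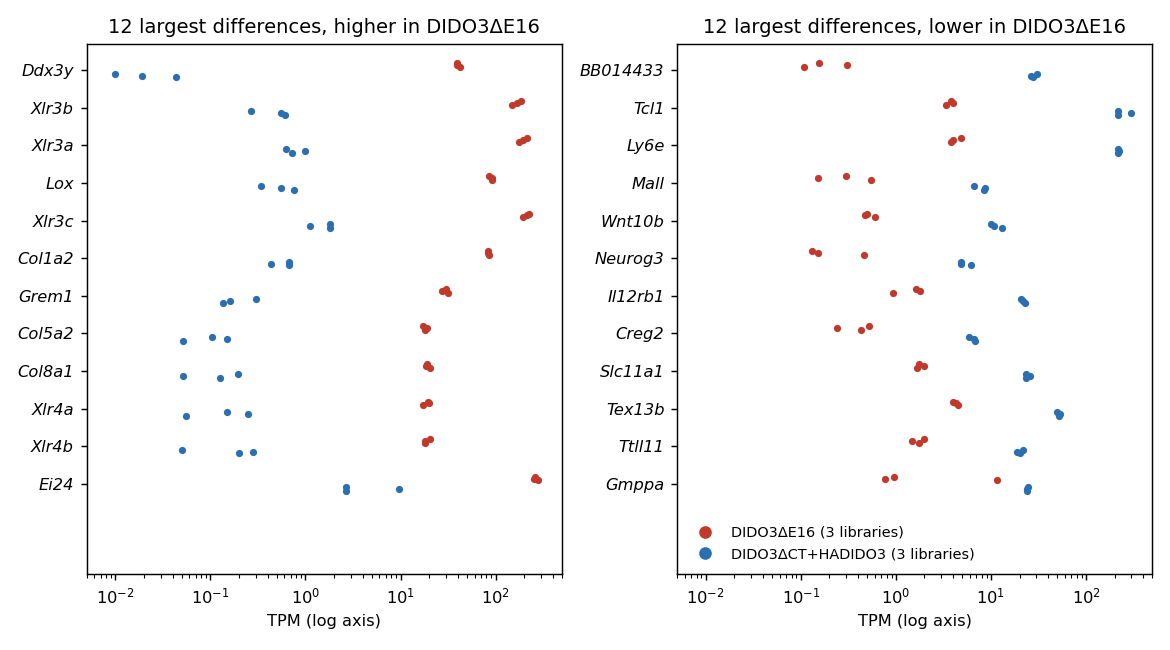
TPM (log axis) in each library for the 12 genes with the largest increase and the 12 with the largest decrease in DIDO3ΔE16. Genes were ranked among called genes of 5 TPM or more with no overlap between groups that share no base with another gene (Gm and Rik names left out). Separation of the groups is thus built into the choice of the 24 genes. The DIDO3ΔE16 replicate 3 point of Gmppa (11.5 TPM) is closest to the other group.

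Of the genes at 0 in every library of 1 group and at a mean of at least 1 TPM in the other, 41 were listed at 0 in DIDO3ΔCT+HADIDO3 and 1, Ces2f, in DIDO3ΔE16. Cavin2, a protein of caveolae, was the most abundant of the 41, at 13.6, 18 and 15.8 TPM in DIDO3ΔE16. Pappa, a protease that cleaves IGF-binding proteins, was at 5.28, 4.96 and 5.83 TPM.

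Of 24 tested naive and core pluripotency factors 7 (29.2%) were higher and 2 (8.33%) lower, beside 14.9% and 13.3% of all tested genes. The 2 lower were Tcl1 and Zfp42, both with shared features, and the median log2 fold change of the list was 0.38. Dppa2, an activator of Dux and other early embryonic genes, was at 341, 346 and 356 TPM in DIDO3ΔE16 and 117, 108 and 106 TPM in DIDO3ΔCT+HADIDO3. Lin28a, which blocks let-7 maturation, was at 746, 785 and 798 TPM against 451, 447 and 434 TPM. Tdgf1, the most abundant member, did not reach the fold threshold, at 2247, 2138 and 2081 TPM against 2379.8, 2399.8 and 2329.5 TPM.

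Of 18 formative and primed genes 7 (38.9%) were higher and 2 (11.1%) lower, beside 14.9% and 13.3% of all tested genes. Sox3 was at 20.5, 17.8 and 21.8 TPM against 6.67, 6.76 and 7.50 TPM, and Zic2 at 10.1, 13.4 and 14.8 TPM against 3.31, 4.50 and 4.54 TPM. Dnmt3a, a de novo DNA methyltransferase, was at 194, 198 and 202 TPM against 68.5, 68.5 and 71.2 TPM (shared features). Otx2, by contrast, was lower, at 2.36, 1.78 and 1.85 TPM against 19.6, 21.6 and 20.4 TPM (shared features; log2 fold change -3.32 ± 0.14, SE).

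Genes of the 2-cell stage, which a small share of ESC express, were higher, with a median of 1.15. Of 17 tested, 12 (70.6%) were called higher and 0 lower, beside 14.9% and 13.3% of all tested genes. Zscan4a was at 100, 91.8 and 79.2 TPM against 37.8, 39.8 and 39.3 TPM. Pramef25 was at 31.6, 27.7 and 24.9 TPM against 4.51, 4.39 and 4.33 TPM, and Tcstv1 at 9.52, 11.1 and 9.06 TPM against 2.29, 2.51 and 2.37 TPM. Each of the groups was separated by more than its own spread. Many of these genes are near-identical copies, so members are not independent measurements.

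Among lineage lists, 6 of 16 tested primitive endoderm genes were higher and 0 lower, including the basement membrane collagens Col4a1 (66.4, 69.8 and 69.6 TPM against 34.03, 38.5 and 38.9 TPM) and Col4a2. The transcription factors Gata4 (shared features) and Gata6 of the same list were not called (log2 fold changes 0.23 and -0.56); without DIDO3ΔE16 replicate 3, Gata6 was called lower, at -0.77. Mesoderm genes numbered 4 higher and 3 lower of 19, neural ectoderm genes 3 and 2 of 13, and trophoblast genes 3 and 5 of 16, beside 14.9% higher and 13.3% lower over all tested genes. Eomes, of the mesoderm list, was at 96.1, 103 and 102 TPM against 32.7, 34.4 and 35.1 TPM (shared features). Hand1, of the same list, was lower, by a log2 fold change of -0.89. Sox1, a neural factor, was at 35.6, 32.7 and 34.6 TPM against 11.4, 12.4 and 12.4 TPM. Ncam1 and Map2, of the neural list, were lower, by log2 fold changes of -1.57 and -1.40 (both with shared features). The median of the neural list was -0.17. Tfap2c, a trophoblast and germ cell factor, was lower, at 36.2, 40.2 and 42.2 TPM against 93.9, 98.7 and 101 TPM (shared features).

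Germline genes numbered 4 higher (12.1%) and 9 lower (27.3%) of 33, beside 14.9% and 13.3% of all tested genes. Dmrt1, a regulator of testis differentiation, was at 14.5, 17.4 and 17.9 TPM against 93.1, 101 and 97.5 TPM (shared features). Imprinted genes numbered 8 higher (28.6%) and 3 lower (10.7%) of 28. Grb10, an inhibitor of growth factor receptors, was at 184, 201 and 210 TPM against 12.6, 12.1 and 12.4 TPM (shared features), and Dio3, a deiodinase that inactivates thyroid hormone, at 67.9, 65.2 and 71.0 TPM against 4.20, 5.57 and 4.84 TPM. Peg3 and Plagl1 were higher too, by log2 fold changes of 1.27 and 1.34, and Phlda2 was lower, by a log2 fold change of -1.97 (all with shared features). Of the 28, 17 were not called, Peg10 among them.

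**Figure D3:**
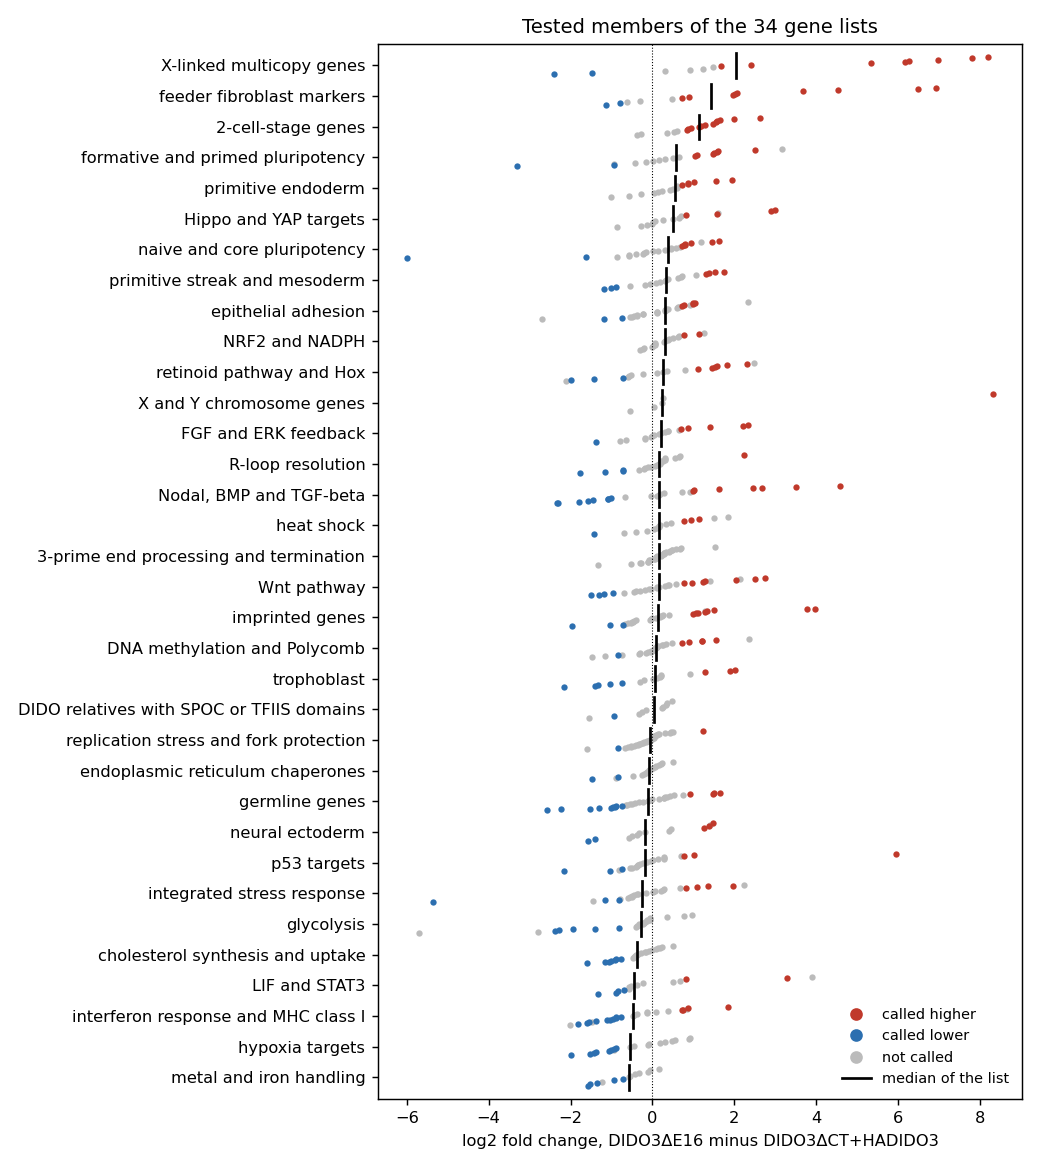
Log2 fold change of each tested member of the 34 gene lists, ordered by list median (black bar), with called members coloured. X-linked multicopy genes, fibroblast markers and 2-cell-stage genes have the highest medians (2.04, 1.43 and 1.15), and metal handling and hypoxia genes the lowest (-0.56 and -0.55).

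Of 19 tested hypoxia targets 8 were lower and 0 higher, where 13.3% of all tested genes were lower and 14.9% higher. Bhlhe40, a repressor induced by hypoxia, was at 79.5, 101 and 104 TPM against 344, 394 and 381 TPM, and Bnip3, a mitophagy receptor, at 132, 153 and 174 TPM against 342, 415 and 430 TPM. Slc2a1, the glucose transporter GLUT1, was at 529, 585 and 579 TPM against 956, 1033 and 976 TPM, and 5 of 22 glycolysis genes were lower and 0 higher, while Pkm, the most abundant of them, was not called (shared features). Of 23 cholesterol genes 7 were lower and 0 higher, among them Dhcr7, the enzyme of the last step to cholesterol, at 93.1, 87.5 and 98.4 TPM against 189, 197 and 188 TPM. Of 13 metal and iron genes 5 were lower and 0 higher, and the zinc exporter Slc30a1 was at 22.1, 22.6 and 23 TPM against 54.5, 54.7 and 61.9 TPM. Endoplasmic reticulum chaperones, with 0 higher and 2 lower of 18, had a share of lower genes near that of all genes.

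Interferon and MHC genes numbered 4 higher (16%) and 10 lower (40%) of 25, beside 14.9% and 13.3% of all tested genes. Ifit2, an interferon-induced antiviral gene, was at 1.05, 1.12 and 1.32 TPM against 3.02, 4.25 and 3.86 TPM. Ddx58 (RIG-I), a sensor of viral RNA, was higher, at 77.0, 90.3 and 88.1 TPM against 24.2, 23.9 and 21.4 TPM (shared features). For LIF and STAT3, 2 of 14 (14.3%) were higher, near the share of all genes, and 4 (28.6%) lower. Lifr, a subunit of the LIF receptor, was at 48.2, 51.9 and 52.5 TPM against 90.5, 86.6 and 95.1 TPM (shared features). Osmr was higher, at 4.35, 5.97 and 5.29 TPM against 0.774, 0.327 and 0.298 TPM (shared features).

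In the FGF and ERK list 5 of 19 (26.3%) were higher and 1 (5.26%) lower, beside 14.9% and 13.3% of all tested genes. Phlda1 was at 19.6, 21.4 and 21.7 TPM against 4.0, 3.85 and 4.11 TPM, and Egr1, an immediate early gene, at 85.3, 85.4 and 83.9 TPM against 26.6, 34 and 34.1 TPM. Etv5, a target of the same pathway, was lower, at 238, 249 and 251 TPM against 659, 627 and 609 TPM (shared features). Wnt genes numbered 7 higher (25.9%) and 4 lower (14.8%) of 27, the lower share being near that of all genes. Sfrp1, a secreted Wnt antagonist, was at 280, 273 and 283 TPM against 111, 112 and 114 TPM. Retinoid and Hox genes numbered 6 higher (31.6%) and 3 lower (15.8%) of 19, the lower share again near that of all genes.

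The integrated stress response numbered 4 higher and 3 lower of 24 and p53 targets 3 and 3 of 24, shares near the 14.9% and 13.3% of all genes. Other stress lists numbered 3 and 1 of 16 for heat shock, and 2 and 0 of 18 for NRF2 targets. Cth, of cysteine synthesis, was at 87.7, 96.0 and 113 TPM against 24.2, 25 and 25.2 TPM. Epithelial adhesion genes numbered 5 higher and 2 lower of 28.

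Genes for processes in which DIDO3 has been studied are given beside all tested genes, of which 28.2% were called in either direction. Of 30 genes of 3′ end processing and termination, 0 were called in either direction by limma, and the median log2 fold change was 0.16. An unadjusted limma p under 0.05 was found for 17 of them and an adjusted p under 0.05 for 15 (12 of them higher). Over all tested genes, 8254 of 15160 had an adjusted limma p under 0.05. R-loop genes numbered 1 higher and 4 lower of 24, replication and fork protection genes 1 and 1 of 35, and DNA methylation and Polycomb genes 5 and 1 of 28. The list of DIDO relatives, which holds Dido1 itself, numbered 0 higher and 1 lower of 10 (Tcea3 lower). Tet2 was at 160, 166 and 152 TPM against 64.7, 69.1 and 70.7 TPM (shared features). Of the genes named by the study, Carm1 (1.83), Klf3 (1.90) and Jam2 (1.0) were higher. Wdr33 (0.47) and Dhx9 (0.65) did not reach the fold threshold, and all 5 have shared features. Gene values include the 2 kb added downstream, so more RNA and transcription past the annotated end cannot be told apart in them. At Carm1 the paper reports read-through in DIDO3ΔE16 against WT, with CARM1 protein nearly absent.

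Families were grouped by symbol stem, with at least 10 tested genes, giving 173. Their counts stand beside 14.9% higher and 13.3% lower over all tested genes. The highest medians were in Hoxa (1.4, 6 of 10 higher and 1 lower), Scn (1.31, 5 higher and 2 lower of 10), Tbx (1.06, 4 of 10 higher), Col and Olfr (0.84, 5 of 10 higher, at levels under 2 TPM for the 2 largest, Olfr543 and Olfr690). Levels were also low for Hoxa11 (means of 1.51 against 0.137 TPM), Hoxa13 (2.94 against 0.777 TPM) and Tbx18 (1.76 against 0.228 TPM). Hoxa4 was lower, at means of 0.468 against 1.39 TPM, and leaving out any 1 of 4 libraries ended its call. Scn2b, a beta subunit of sodium channels, was at 11.2, 13.3 and 11.6 TPM against 0.951, 0.704 and 0.966 TPM. The lowest were Igsf (-0.99), Klk (-0.62), Abca (-0.58), Nudt (-0.50) and Krt (-0.45), with 5, 5, 5, 6 and 5 genes lower. Abca1, a cholesterol exporter, was at 2.98, 4.12 and 4.67 TPM against 17.5, 14.9 and 18.1 TPM.

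Of the 14 families with at least 50 genes, Zfp zinc finger genes had the highest median, at 0.22, with 81 of 380 higher and 17 lower. Trim followed at 0.20, with 8 higher and 11 lower of 55. Slc transporters numbered 47 higher and 38 lower of 299, Tmem genes 32 and 43 of 207, Fam genes 28 and 22 of 169, and Ccdc genes 17 and 18 of 110, beside 14.9% higher and 13.3% lower over all tested genes, a rate that the Slc and Fam families were close to. Wdr and Eif genes had the fewest calls for their size, 6 higher and 1 lower of 59 and 2 higher and 3 lower of 52. Atp, Rab, Lrrc, Usp, Ppp and Rnf had medians from -0.10 to 0.03.

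By position, chromosome 1 stood apart. Its 879 tested genes had a median of -0.28, and 24.3% were lower against 13.3% higher. The medians of the other chromosomes ranged from -0.03 to 0.08. On chromosome 1, 64.0% of genes were below 0, against 48.6% elsewhere, and all 15 of its 10 Mb windows had a median below 0, against 80 of 208 elsewhere. Genes with unshared features gave a median of -0.26 (n = 351).

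**Figure D4:**
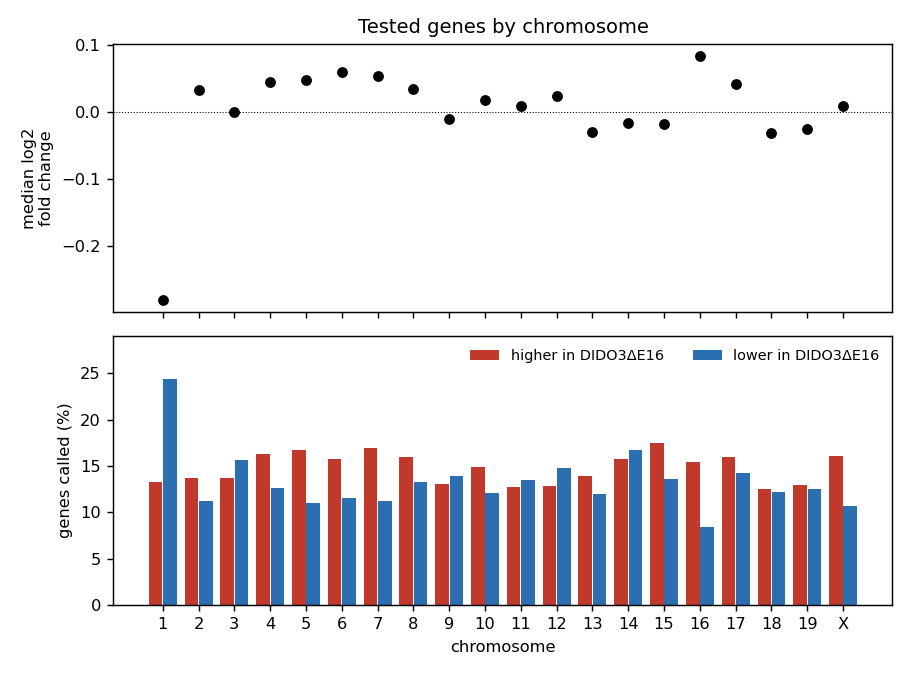
Median log2 fold change (top) and percent of tested genes called in each direction (bottom) by chromosome. Chromosome 1 has the lowest median (-0.28) and the most genes called lower (24.3%).

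The lowest windows were chromosome 1 from 190 to 200 Mb (-0.68), chromosome 1 from 10 to 20 Mb (-0.65) and chromosome 14 from 0 to 10 Mb (-0.65). The highest were chromosome 10 from 100 to 110 Mb (1.21), chromosome 2 from 170 to 180 Mb (0.38) and chromosome 17 from 80 to 90 Mb (0.34). In the chromosome 10 window 11 of 12 genes with Gm names were higher, and the other 16 genes had a median of 0.07.

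The choice between 3′ ends was tested in 1825 genes whose most proximal and most distal sites shared no base with another site on their strand. The shift, the log2 ratio of distal to proximal TPM in DIDO3ΔE16 minus that in DIDO3ΔCT+HADIDO3, was above 0 in 69.0% of genes, with a median of 0.25. It passed the threshold towards the distal end in 365 genes (20.0%) and towards the proximal end in 82 (4.49%). The median share of distal TPM was 79.3%, 79.2% and 80.0% in the DIDO3ΔE16 libraries and 76.0%, 75.9% and 75.7% in the DIDO3ΔCT+HADIDO3 libraries. These shares did not overlap.

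The 365 genes were picked by the ratio of these same sites, so lower proximal or higher distal sites among them are built in. Their proximal site was called lower in 210 and the distal site higher in 151, with both in 39. Over all 1825 genes these counts were 425, 230 and 39. The shift was more frequent at long distances: a distal shift was called in 13.6% of genes with 2 to 5 kb between the ends, 17.8% with 10 to 30 kb, 31.2% with 30 to 100 kb and 37.0% over 100 kb (81 genes), given as a description. The proximal shift was called in 3.94% to 8.64% of genes in these groups.

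**Figure D5:**
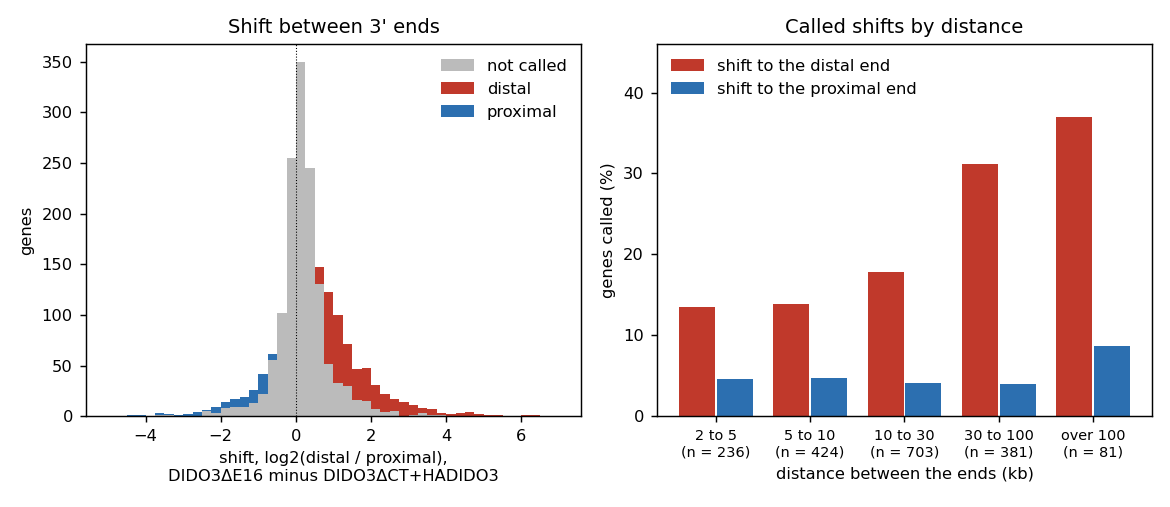
Left, number of genes by shift (log2 scale) between the distal and proximal 3′ end; right, percent of genes called by the distance between the ends. More genes shifted to the distal end (365) than to the proximal (82), and the distal share was 13.6% at 2 to 5 kb and 37.0% over 100 kb.

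End sites can hold several features of the same coordinates; of the ends named here, those of Dido1, Map3k20 and Tbc1d23 are each listed as 1 feature with no overlap on either strand. Tenm3, a teneurin of neural cell contacts, had the largest distal shift, 6.33 ± 0.36 (SE; limma adjusted p = 0.000363). Its proximal site on chromosome 8 (48332753 to 48335505) had 0.127, 0.386 and 0.174 TPM in DIDO3ΔE16 and 10.05, 11.2 and 8.80 TPM in DIDO3ΔCT+HADIDO3. The distal site (48223665 to 48228445) had 21.1, 19.7 and 22.1 TPM against 9.14, 10.6 and 6.04 TPM. Map3k20, a stress kinase, shifted by 4.95, with 0.625, 0.342 and 0.665 TPM against 6.73, 6.86 and 5.54 TPM at the proximal site and 4.91, 4.97 and 5.95 TPM against 2.18, 1.22 and 1.76 TPM at the distal site. Klf3, a repressor of the KLF family, shifted by 4.21, with a distal share of 95.7% to 96.8% against 58.7% to 59.3%. Jam2, a junction adhesion molecule, shifted by 2.92, though its distal site overlaps a feature of the opposite strand.

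Atp9a (6.00), Cpped1 (4.82) and Eif2b3 (4.55) also shifted to the distal end, but less evenly. At the distal site of Cpped1, for example, DIDO3ΔCT+HADIDO3 had 7.21, 51.7 and 7.31 TPM and DIDO3ΔE16 51.6 to 56.1 TPM, whereas the proximal site had 6.12, 7.81 and 6.83 TPM against 0.594 to 1.17 TPM. Leaving out any library but DIDO3ΔCT+HADIDO3 replicate 2 ended the call of Eif2b3 (shifts of 3.71 to 5.06). Zfp692 (5.50) overlaps a feature of the opposite strand.

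Among proximal shifts, Dido1 was the largest (-4.49), from the sites above. Its distal site is at the end of the exon deleted by Cre, and its proximal site was not called. A low distal value is thus built into the genotype, and the Dido1 shift cannot test a choice between ends. Tbc1d23, a golgin-binding protein of endosome transport, shifted by -2.06, with its proximal site at 22.9, 18.9 and 16.9 TPM against 5.29, 5.33 and 5.10 TPM, and its distal site at 42.8, 43.8 and 45.2 TPM against 51.0, 46.4 and 53.7 TPM. Xaf1, a pro-apoptotic interferon-induced gene with shared features, shifted by -2.55, its distal site being at 7.20, 5.82 and 4.75 TPM against 40.1, 45.2 and 43.3 TPM. Syn3, Spg11 and Ttll3 overlap features of the opposite strand.

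The last 30 bases of annotated transcripts (GENCODE vM21, GRCm38, which is mm10) are printed for a selection of ends of genes with a called shift. They show where the polyadenylation signal AATAAA (capitals, same strand) lies, and each ends 2 kb inside the feature.
Dido1 distal, chromosome 2: acttgaagtagAATAAAtatctacagagtt
Map3k20 proximal, chromosome 2: ttctgtgttgagaagctttggtctctttcc
Map3k20 distal, chromosome 2: ggtAATAAAaaaaaagattattgaagttaa
Tbc1d23 proximal, chromosome 16: tagctatatttttgtaaatataaaatattt
Tbc1d23 distal, chromosome 16: gtaAATAAActgatacaagtttgctcaaaa
Xaf1 proximal, chromosome 11: aaaaatagaaacagctcaacaaagcgagag
Xaf1 distal, chromosome 11: gctccaaAATAAActtatctctgcatcctt
The printed ends do not show every pattern. Among ends not printed, the proximal ends of Jam2 and Cpped1 have AATAAA, and the distal ends of Atp9a and Ttll3 lack it. Over all sites with a matched transcript end, AATAAA was within the last 50 bases of 57.8%. It was present at 36.0% of proximal and 61.9% of distal ends of genes with a distal shift, at 27.9% and 77.4% with a proximal shift, and at 28.2% and 69.5% without a called shift.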

How the data were processed

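RNA-seq libraries of total RNA were made with standard Illumina protocols. The authors aligned reads to mm10 with BWA (0.7.15), removed duplicates, and ran StringTie (1.3.3) restricted to reference 3′UTR features extended by 2 kb; the command names no strand option, so opposite-strand reads over shared bases cannot be told apart. The deposited TPM are values per feature within each library, not scaled between libraries, and read counts were not used here. The other field of the deposited files used here is coverage, for depth alone. The 6 matrix columns of WT libraries were not used.

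Features (43031) were named from GENCODE vM21 (99.13% named). Library scaling used a trimmed mean of log2 ratios (30% at each end). limma (3.58.1, R 4.3.3; trend, robust, 2-sided) was run on log2(TPM + 0.1), without covariates, over genes, sites and end ratios with TPM above 0 in all 6 libraries (end sites also with a mean of at least 1 TPM), and adjusted by Benjamini-Hochberg. Fold changes are on the log2(TPM + 0.1) scale and understate those of low genes. TPM is no count, so limma replaced the edgeR of the authors. With 3 libraries a group, an exact permutation test cannot go below p = 0.1. The scripts (Python 3.11.15, numpy 2.4.6, pandas 2.3.3, matplotlib 3.10.9) were tested on simulated data. The members and the 34 lists were chosen with earlier results of these data known. Named genes were Dido1 and genes the study names; the 12 largest called differences each way at a mean of 5 TPM or more with no overlap between groups, no base shared with another gene and no Gm or Rik name; in each list up to 3 called members each way at 5 TPM or more, the most abundant member and marker genes; the 6 largest called end shifts each way; up to 2 called genes each way in a named family; and up to 10 genes at 0. A selection of these is printed. Lin28a, Sox3, Bnip3, Slc2a1, Ifit2, Rhox5, Rhox13, Xlr4c, Peg3, Plagl1, Id1, Id3, Id4, Nodal, Lefty2, Gata4 and Gata6 were chosen after their values were seen. So was Olig2. Alternatives were other pseudocounts, filters, scalings, thresholds and units, no trend, a replicate block and leaving out each library. Some genes of the lists are not reported here by name.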

Additional observations from a re-analysis of the deposited data

How the results depend on the processing

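Counts of genes stayed within 1.5 times under other pseudocounts, filters on low values, scalings, an adjusted p under 0.01 and no trend (1808 to 2783 higher, 1689 to 2281 lower). With a fold threshold of 1 in place of 0.7 (log2), 1229 genes and 1832 sites were lower. Leaving out each library gave 2108 to 2241 genes higher and 1904 to 1989 lower, 2704 to 2863 sites higher and 2619 to 2765 lower, and 303 to 339 distal and 73 to 84 proximal shifts. With genes tested if any library was above 0, shifts numbered 571 and 126, of 3042. Subsets gave smaller counts because fewer were tested: 1894 higher and 1615 lower of 11613 genes clear of other genes, 54 proximal shifts without overlap on either strand and, chosen after seeing the data, 1092 and 862 of 5659 genes with unshared features (fitted on their own) and 154 and 28 of 599 end pairs listed once. With a replicate block, 2085 genes were higher and 1883 lower, 2628 sites higher and 2555 lower, and 298 shifts were distal and 70 proximal. Deviations of same-numbered libraries correlated at 0.003, -0.02 and 0.03, and not every library correlated best with its own number, so the libraries share only a number. Of 238 called named genes 183 kept their call in every one of the 18 settings that tested them, 55 lost it in some and 0 reversed. Genes with shared features were not tested in the subset of unshared features, nor genes overlapping another gene in the subset clear of other genes. Gmppa was among those lost on leaving out 1 library. The chromosome 1 median ranged from -0.33 to -0.17. Esrrb changed from 1.19 to -0.54 without DIDO3ΔCT+HADIDO3 replicate 2. TPM keep no read counts, so counting error at low levels is unknown.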
